A study of Mus musculus with 6 samples.

Results

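Fatty acid synthesis and oxidation were followed through 44 genes in regulatory T cells (Treg cells), the CD4+ lymphocytes that express the transcription factor Foxp3 and restrain immune responses. The genes were taken by name: enzymes, carriers and lipases of lipid metabolism, each measured on the RefSeq transcript with the highest mean value over 6 libraries. They are 44 of the 24453 gene symbols measured, and 40 of the 13621 genes that were abundant enough to test. Elovl7, Acsl6, Lpl and Cd36 fell below the minimum, a mean of 1 RPKM (reads per kilobase of exon, here per 10000000 counted reads), and are given as values.

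RNA was sequenced from flow-sorted Treg cells of female C57BL/6 mice described as healthy. The miR-27 Tg group (3 libraries) overexpressed miR-27a in Treg cells only, from a transgene that the series title pairs with Foxp3cre het. The control group (WT, 3 libraries) has the genotype label WT Tg, and the sources used here do not say what that wording denotes. Foxp3 lies on the X chromosome, and each cell of a female silences one of her X chromosomes, so in a heterozygous female not every Treg cell can express a Cre placed in Foxp3. Whether only Cre-expressing cells were sorted, how old the mice were and whether each library came from its own mouse is not recorded in the labels. The p-values therefore measure how far single libraries differ, and that spread may be technical. Foxp3, the marker of the sort, was abundant, with 955, 774 and 777 RPKM in miR-27 Tg against 830.3, 662 and 801 RPKM in WT. In bulk RNA, fewer cells of a type and less RNA per cell cannot be told apart.

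Fatty acids are built in the cytosol from citrate. Acly splits citrate to acetyl-CoA, Acaca and Acacb carboxylate it to malonyl-CoA, Fasn joins the units to palmitate, and desaturases and elongases then shape the chain. For breakdown, acyl-CoA synthetases activate the acid, Cpt1 enzymes pass it to carnitine at the outer mitochondrial membrane, and the beta-oxidation enzymes shorten it in the matrix. Malonyl-CoA inhibits Cpt1, which keeps synthesis and oxidation from running at once. Treg cells are known for drawing on fatty acid oxidation more than effector T cells do. MicroRNAs repress messenger RNAs through short matches to their seed, bases 2 to 8, and miR-27 is known from liver and fat cells as a regulator of lipid genes.

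The overexpressed microRNA and its matches in the 3′ UTRs of the measured genes were read first, because they show which members carry a place where miR-27 could pair. Mature miR-27a-3p, from RefSeq (GRCm38.p6, chr8:84208727-84208747, plus strand), is shown with its seed in capitals; miR-27b-3p, from chr13:63300760-63300780 on the plus strand, has the same seed.
mmu-miR-27a-3p: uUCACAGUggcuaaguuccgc
mmu-miR-27b-3p: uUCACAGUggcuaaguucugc

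The hairpin Mir27a had 8919, 7448 and 7898 RPKM in miR-27 Tg (2921, 2206 and 2339 reads) against 24.9, 38.4 and 24.7 RPKM in WT (9, 13 and 8 reads), so every library matched its label. The complement of the seed, ACTGTGA, was then searched on the transcript strand of the GENCODE M21 3′ UTRs (GRCm38, the build of the deposited table). Of the 40 tested members 9 held it, or 22.5%, against 14.9% of 11822 tested genes with an annotated 3′ UTR. The members were Acadm, Acsl1, Acsl5, Elovl6, Fads1, Fasn, Gpam, Hadha and Scd2, and of the genes below the minimum Lpl held it too. Of these places 6 are printed, from the genes with the lowest (Gpam, Scd2) and the highest (Fads1, Elovl6) fold changes among those with a match, and from Hadha, the tested member with more than 1 place. Capitals mark the match.
Gpam, chr19:55070613-55070637, minus strand: ttttcaggctagttACTGTGAtgga
Scd2, chr19:44306431-44306455, plus strand: tttcgcctaacaatACTGTGActca
Fads1, chr19:10196558-10196582, plus strand: tcttctcagccttcACTGTGAcacg
Elovl6, chr3:129636579-129636603, plus strand: accttctagtgtcaACTGTGAggag
Hadha, chr5:30119632-30119656, minus strand: cctggtgaagtctgACTGTGAatta
Hadha, chr5:30118306-30118330, minus strand: ggtttcattaaacaACTGTGAgaag

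Only the upstream place in Hadha and the one in Lpl were followed by an A, the base that lies opposite the first base of the microRNA and completes the longest seed match. A match is a description of letters, not a measured binding site. In Acsl5 the match (chr19:55296651-55296657) lies past the end of the measured transcript (55296628), in a longer annotated 3′ UTR. Members with a match had a median log2 fold change of -0.01 (miR-27 Tg over WT, n = 9). Of the 9 members 5 were below 0, against 1112 of the 1757 tested genes with a match. Members without one had a median of -0.04 (n = 31). Over all tested genes the medians were -0.06 for 1757 genes with a match and -0.0007 for those without. Gpam and Scd2 lay lowest among the 9, at -0.39 and -0.30, and Elovl6 and Fads1 highest, at 0.38 and 0.25. Of these 9 genes 0 passed the test, by limma (1 had an unadjusted p under 0.05, Elovl6, which was higher).

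**Figure D1:**
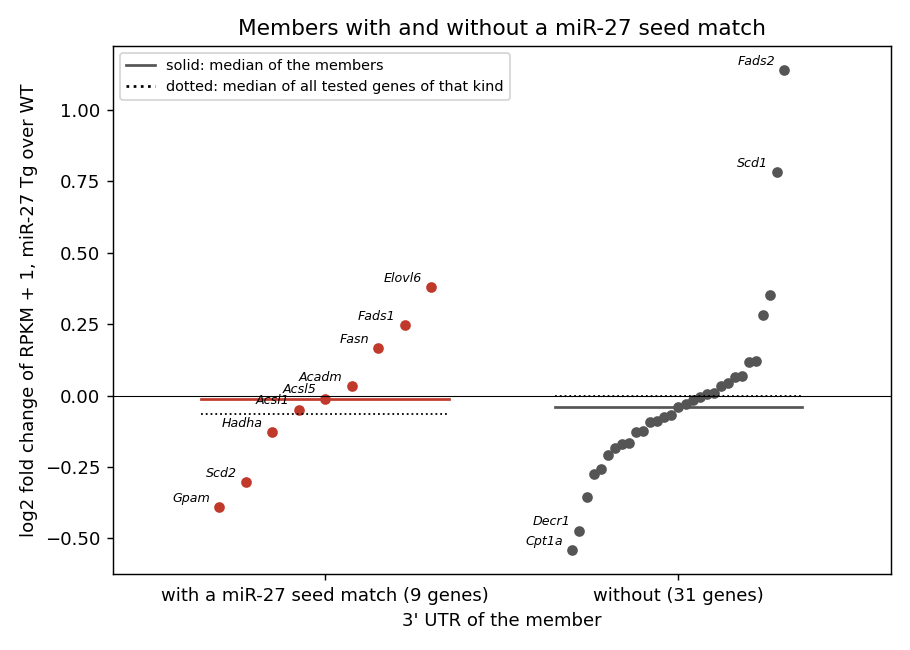
Log2 fold change of RPKM + 1 (miR-27 Tg over WT, vertical axis) of the 9 members with a miR-27 seed match in the 3′ UTR and the 31 without; each point is a gene, solid lines are medians of the members and dotted lines medians of all tested genes of that kind. Genes with a match run from -0.39 for Gpam to 0.38 for Elovl6, and Cpt1a at -0.54 stands among the genes without one.

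The comparison of miR-27 Tg with WT asked which steps of fatty acid metabolism differ when miR-27a is overexpressed. One member passed the test. Cpt1a, the rate-limiting enzyme of mitochondrial fatty acid oxidation, fell by 0.54 on the log2 scale, to 0.687 of its WT level. No other member of the synthesis, elongation, oxidation, uptake or glycerolipid groups passed in either direction. Each fold change is on the scale of log2(RPKM + 1), fitted over all 13621 genes with limma and adjusted by the Benjamini-Hochberg method, and on that scale low genes appear to change less than they do.

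Of the 40 tested members 1 (2.5%) was lower and 0 were higher at an adjusted p under 0.05, against 0.653% and 0.374% of all genes tested (1.03% in either direction). At an unadjusted p under 0.05 the members numbered 7, or 17.5%, against 13.0% of all genes tested. Of these 4 were higher, or 10% of members against 4.59% of all genes tested, and 3 were lower, or 7.5% against 8.43%. The 3 miR-27 Tg values did not overlap the 3 WT values for 10 members, or 25.0%, against 18.5% of all genes tested. The miR-27 Tg libraries lay above WT for 5 members, or 12.5% against 6.84% of all genes tested, and below for 5, or 12.5% against 11.6%. These counts are small, and none of the differences in share was tested. The median log2 fold change of the members was -0.03, and that of all genes tested was -0.01, with 16 members above 0 and 24 below (20 and 20 with median-of-ratios scaling, 19 and 21 with quantile normalization). The 95% interval of the fold change lay within 1 log2 unit of 0 for 38 of the 40, the exceptions being Scd1 and Fads2, and within 0.5 for 20.

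**Figure D2:**
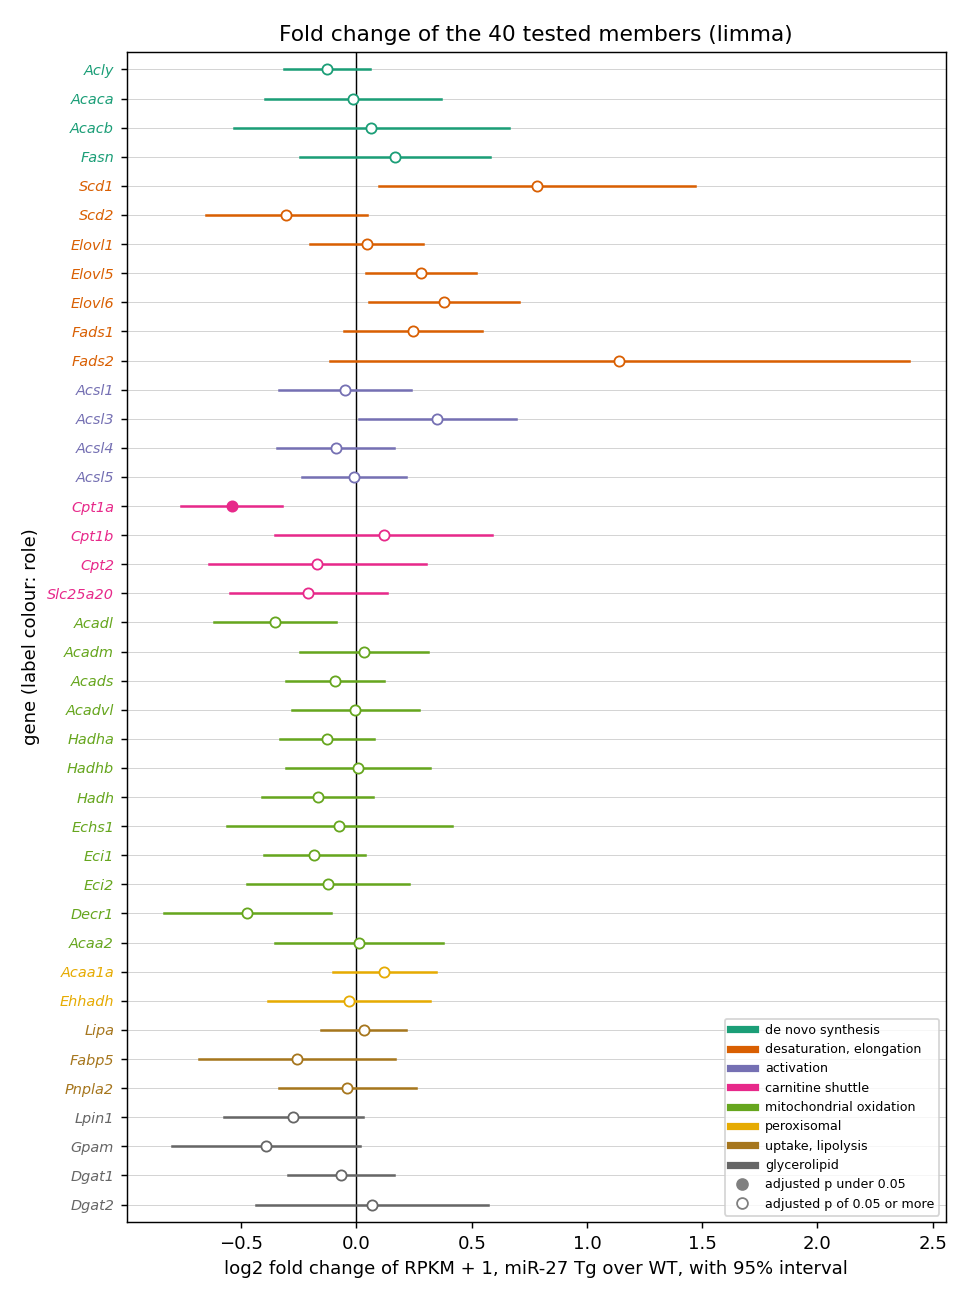
Log2 fold change of RPKM + 1 (miR-27 Tg over WT) of each tested member with its 95% interval from limma, by role; filled points have an adjusted p under 0.05. The one filled point is Cpt1a at -0.54 with an interval from -0.76 to -0.32, and 38 of the 40 intervals lie between -1 and 1.

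The carnitine shuttle held the gene that changed. Cpt1a (NM_013495, chr19:3323301-3385733, mm10) had 152, 142 and 149.6 RPKM in miR-27 Tg against 211, 199 and 237 RPKM in WT. All 3 miR-27 Tg libraries lay below all 3 WT libraries, and the gap between the groups was wider than the spread within miR-27 Tg. The means were 148 ± 4.98 and 216 ± 19.4 RPKM (SD, n = 3 each), from 2472, 2096 and 2205 reads in miR-27 Tg and 3805, 3358 and 3829 in WT, with a log2 fold change of -0.54 (SE 0.09, adjusted p = 0.0460 by limma). Its 3′ UTR of 1892 bases held 0 seed matches, and no other annotated gene shares its exons. The call lies close to the threshold: it ended without any one of the 6 libraries (adjusted p = 0.0633 to 0.151), while the fold change stayed between -0.60 and -0.47.

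The muscle isoform Cpt1b had 15.4, 10.8 and 15.3 RPKM in miR-27 Tg against 12.9, 10.3 and 14.8 RPKM in WT. These values overlap (log2 fold change 0.12, adjusted p = 0.880 by limma), and another annotated gene shares 94.8% of its exonic bases, so its own level is uncertain. Cpt2, which returns the acyl group to CoA inside the mitochondrion, had 30.0, 39.2 and 47.5 RPKM in miR-27 Tg against 37.4, 54.5 and 39.3 RPKM in WT. Slc25a20, the carnitine-acylcarnitine carrier of the inner membrane, had 102, 114 and 143 RPKM in miR-27 Tg against 120.2, 153 and 139.9 RPKM in WT. Both overlapped between the groups, with log2 fold changes of -0.17 (95% interval -0.64 to 0.30) and -0.21 (-0.55 to 0.13). Single libraries set these sizes: Cpt2 was at -0.00031 with miR-27 Tg replicate 1 left out, at -0.0046 when WT replicate 2 was left out, and at -0.32 when this was miR-27 Tg replicate 3. The values of Slc25a20 in the same 3 fits were -0.10, -0.13 and -0.34.

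**Figure D3:**
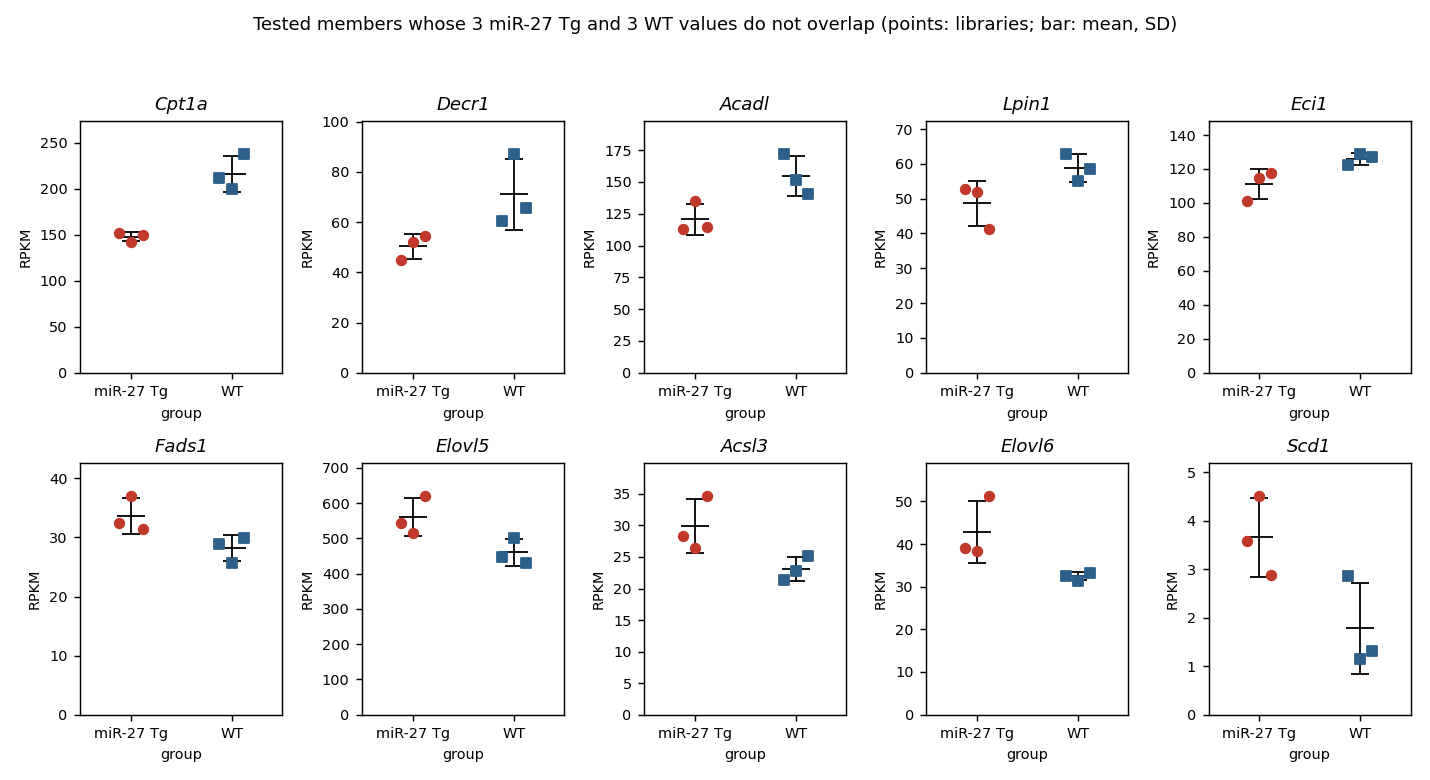
RPKM per library (points) with mean and SD (bars) of the 10 tested members whose 3 miR-27 Tg values (left in each panel) do not overlap the 3 WT values. Cpt1a, Decr1, Acadl, Lpin1 and Eci1 are lower in miR-27 Tg, and Fads1, Elovl5, Acsl3, Elovl6 and Scd1 higher; Cpt1a alone passed the test.

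Mitochondrial beta-oxidation was measured through 12 enzymes, with group means of 36.1 to 235 RPKM in miR-27 Tg and 35.8 to 251 RPKM in WT. None passed the test by limma. At an unadjusted p under 0.05 by limma 2 of the 12 (Acadl and Decr1) were lower, against 8.43% of all genes tested. Acadl, the long-chain acyl-CoA dehydrogenase, had 113, 135 and 115 RPKM in miR-27 Tg against 172, 151 and 141 RPKM in WT (log2 fold change -0.35, adjusted p = 0.232 by limma). Decr1, a reductase needed for unsaturated acids, had 44.8, 51.9 and 54.5 RPKM in miR-27 Tg against 60.3, 87.0 and 65.7 RPKM in WT (-0.47, adjusted p = 0.241 by limma). Eci1, an isomerase that moves double bonds so that such acids can be oxidised, had 101, 115 and 118 RPKM in miR-27 Tg against 122, 129 and 127 RPKM in WT (-0.18, adjusted p = 0.487 by limma). In these 3 of the 12 genes every miR-27 Tg library lay below every WT library, against 11.6% of all genes tested. Acadl and Decr1 did not pass once p was adjusted over all genes tested. Eci1 did not reach an unadjusted p under 0.05 by limma.

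The other enzymes of the pathway overlapped between the groups. Acadvl, the very-long-chain dehydrogenase that begins the spiral, had 207, 237 and 261 RPKM in miR-27 Tg against 211, 262 and 235 RPKM in WT, and a gene on the opposite strand shares 45.02% of its exonic bases. Acadm, the medium-chain dehydrogenase, had 96.2, 103.5 and 119 RPKM in miR-27 Tg against 91.9, 114 and 105 RPKM in WT. Hadha, a subunit of the trifunctional protein, had 219, 225 and 244 RPKM in miR-27 Tg against 239, 266 and 248 RPKM in WT. Their log2 fold changes were -0.0046 (95% interval -0.28 to 0.27), 0.03 (-0.25 to 0.31) and -0.13 (-0.33 to 0.07). The remaining 6 (Acads, Hadhb, Hadh, Echs1, Eci2 and Acaa2) had fold changes between -0.17 and 0.01. Of the peroxisomal enzymes, the thiolase Acaa1a had a log2 fold change of 0.12 and the bifunctional enzyme Ehhadh of -0.03, and neither passed.

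Single libraries weighed on this group. Replicate 1 of miR-27 Tg was the lowest of the 6 libraries for 12 of the 18 genes of the carnitine shuttle and beta-oxidation, and WT replicate 2 was the highest for 11. Over all genes tested these 2 libraries were also lowest and highest most often, for 28.6% and 30.2% of genes. The median log2 fold change of the 18 was -0.11, with 13 below 0. Without miR-27 Tg replicate 1 it was 0.0080, with 9 below 0, and without WT replicate 2 it was -0.02, with 11 below 0. With any one of the other libraries left out it lay between -0.18 and -0.12.

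**Figure D4:**
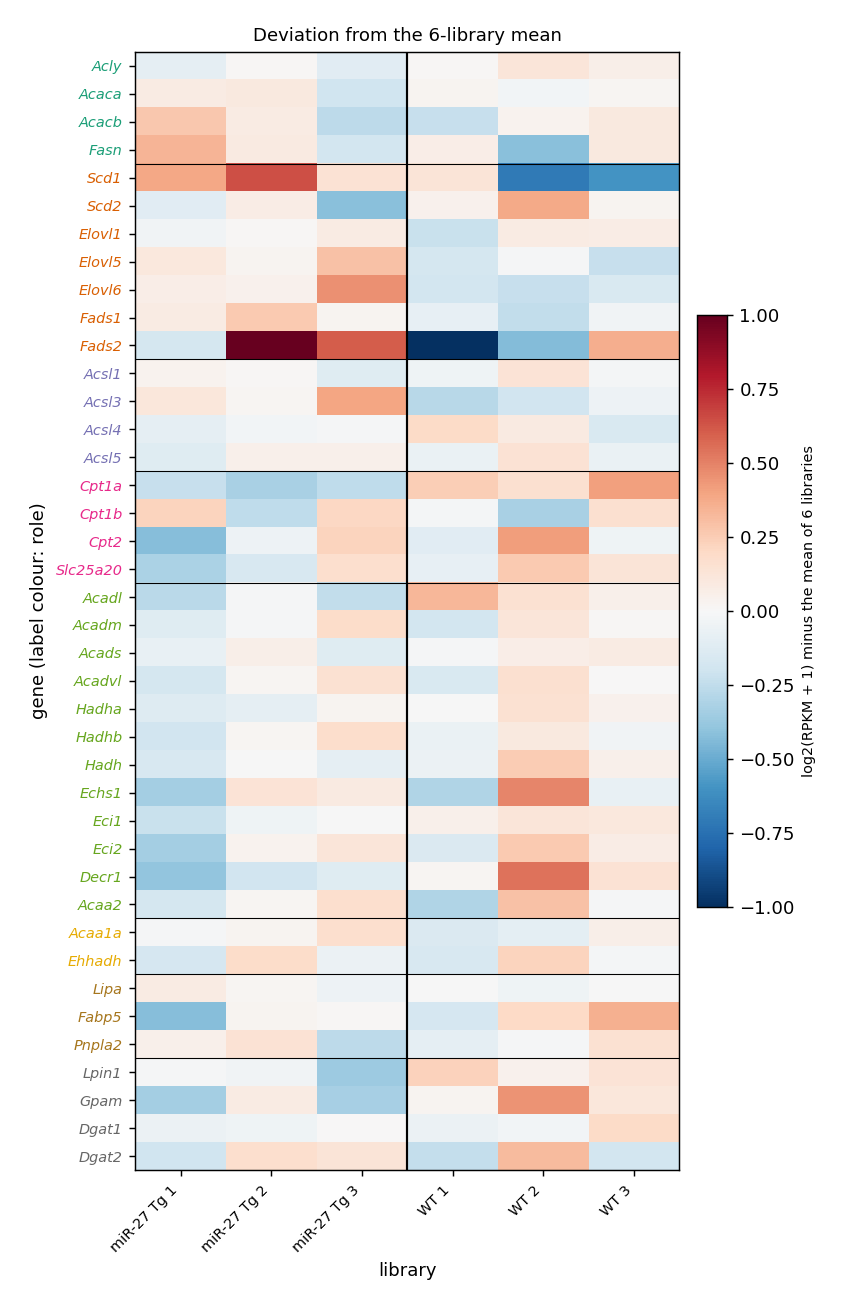
Deviation of each tested member (rows, by role) in each library (columns, miR-27 Tg left of the line, WT right) from its mean over the 6 libraries, in log2(RPKM + 1); values beyond 1 or -1 have the end colour. Cpt1a is below its mean in all miR-27 Tg libraries, and most oxidation genes are low in miR-27 Tg replicate 1 and high in WT replicate 2. Cpt1b goes the other way in both of these libraries.

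In desaturation and elongation 6 of 7 tested genes lay above 0, against 6413 of 13621 over all genes, with a median log2 fold change of 0.28, and 0 passed. At an unadjusted p under 0.05 by limma 3 of the 7 were higher (Scd1, Elovl5 and Elovl6), against 4.59% of all genes tested. This count was 1 without miR-27 Tg replicate 3 or without any one WT library. Elovl5, an elongase of polyunsaturated acids and the most abundant of the 44 members, had 544, 515 and 620.0 RPKM in miR-27 Tg against 448, 502 and 431 RPKM in WT (log2 fold change 0.28, adjusted p = 0.292 by limma). Elovl6, which extends palmitate to stearate, had 39.0, 38.4 and 51.3 RPKM in miR-27 Tg against 32.6, 31.4 and 33.3 RPKM in WT (0.38, adjusted p = 0.3002 by limma). Fads1, the delta-5 desaturase, had 32.5, 37.0 and 31.4 RPKM in miR-27 Tg against 28.9, 25.7 and 29.9 RPKM in WT (0.25, adjusted p = 0.492 by limma). Elovl5, Elovl6, Fads1 and Scd1 had every miR-27 Tg library above every WT library. These are 4 of the 7 tested genes, against 6.84% of all genes tested. Elovl1, an elongase of very long saturated chains, overlapped, with a log2 fold change of 0.04.

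The stearoyl-CoA desaturases, which make oleate, were carried by Scd2. It had 174, 198 and 140.3 RPKM in miR-27 Tg against 193, 245 and 192 RPKM in WT (log2 fold change -0.30, 95% interval -0.65 to 0.04, adjusted p = 0.462 by limma). Scd1, the main isoform of liver, had 3.59, 4.51 and 2.89 RPKM in miR-27 Tg against 2.86, 1.16 and 1.32 RPKM in WT, from 66, 75 and 48 reads against 58, 22 and 24 (0.78, adjusted p = 0.308 by limma). WT replicate 1 lay close to the lowest miR-27 Tg library for Scd1, and the other WT libraries lay well below. The ratio of Scd2 to Scd1, per length, was 48.4, 43.9 and 48.6 in miR-27 Tg against 67.7, 212 and 145 in WT, lower in every miR-27 Tg library. Fads2, the delta-6 desaturase, had 2.64, 8.94 and 5.25 RPKM in miR-27 Tg against 0.318, 2.04 and 4.26 RPKM in WT, from 15, 46 and 27 reads against 2, 12 and 24 (1.14, 95% interval -0.12 to 2.40, adjusted p = 0.436 by limma). Its values overlapped between the groups and spread widely within each. Elovl7, below the minimum, had 14, 13 and 13 reads in miR-27 Tg against 10, 10 and 2 in WT.

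Of the 4 genes of de novo synthesis 0 passed, and 0 had an unadjusted p under 0.05 by limma. Acly had 339, 364 and 335 RPKM in miR-27 Tg against 364, 394 and 376 RPKM in WT. Acaca, the cytosolic carboxylase, had 10.2, 10.4 and 8.25 RPKM in miR-27 Tg against 9.83, 9.43 and 9.79 RPKM in WT. Fasn had 160.5, 135 and 111 RPKM in miR-27 Tg against 133, 94.5 and 135 RPKM in WT. All of these overlapped between the groups, with log2 fold changes of -0.13 (95% interval -0.32 to 0.06), -0.02 (-0.40 to 0.37) and 0.17 (-0.25 to 0.58). Leaving out WT replicate 2 put Fasn at 0.00011, and leaving out replicate 1 or 3 of miR-27 Tg put it at 0.036 or 0.30. The sign for Acaca turned with median-of-ratios scaling and quantile normalization. Acacb, the carboxylase at the mitochondrial surface, was near the minimum at 2.34, 1.93 and 1.31 RPKM in miR-27 Tg against 1.35, 1.84 and 1.95 RPKM in WT, and its values overlapped.

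Acyl-CoA synthetases, which activate fatty acids for both directions, were led by Acsl5, with 288, 324 and 324 RPKM in miR-27 Tg against 298, 346 and 299 RPKM in WT. Acsl3, the isoform known from lipid droplets, had 28.4, 26.5 and 34.7 RPKM in miR-27 Tg against 21.3, 22.7 and 25.2 RPKM in WT. The groups did not overlap for Acsl3, but it did not pass (log2 fold change 0.35, adjusted p = 0.369 by limma). Acsl1, Acsl4 and Acsl5 had fold changes between -0.09 and -0.01. Acsl6, known from brain, had 6, 3 and 5 reads in miR-27 Tg against 0, 1 and 0 in WT, too few to set a level.

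**Figure D5:**
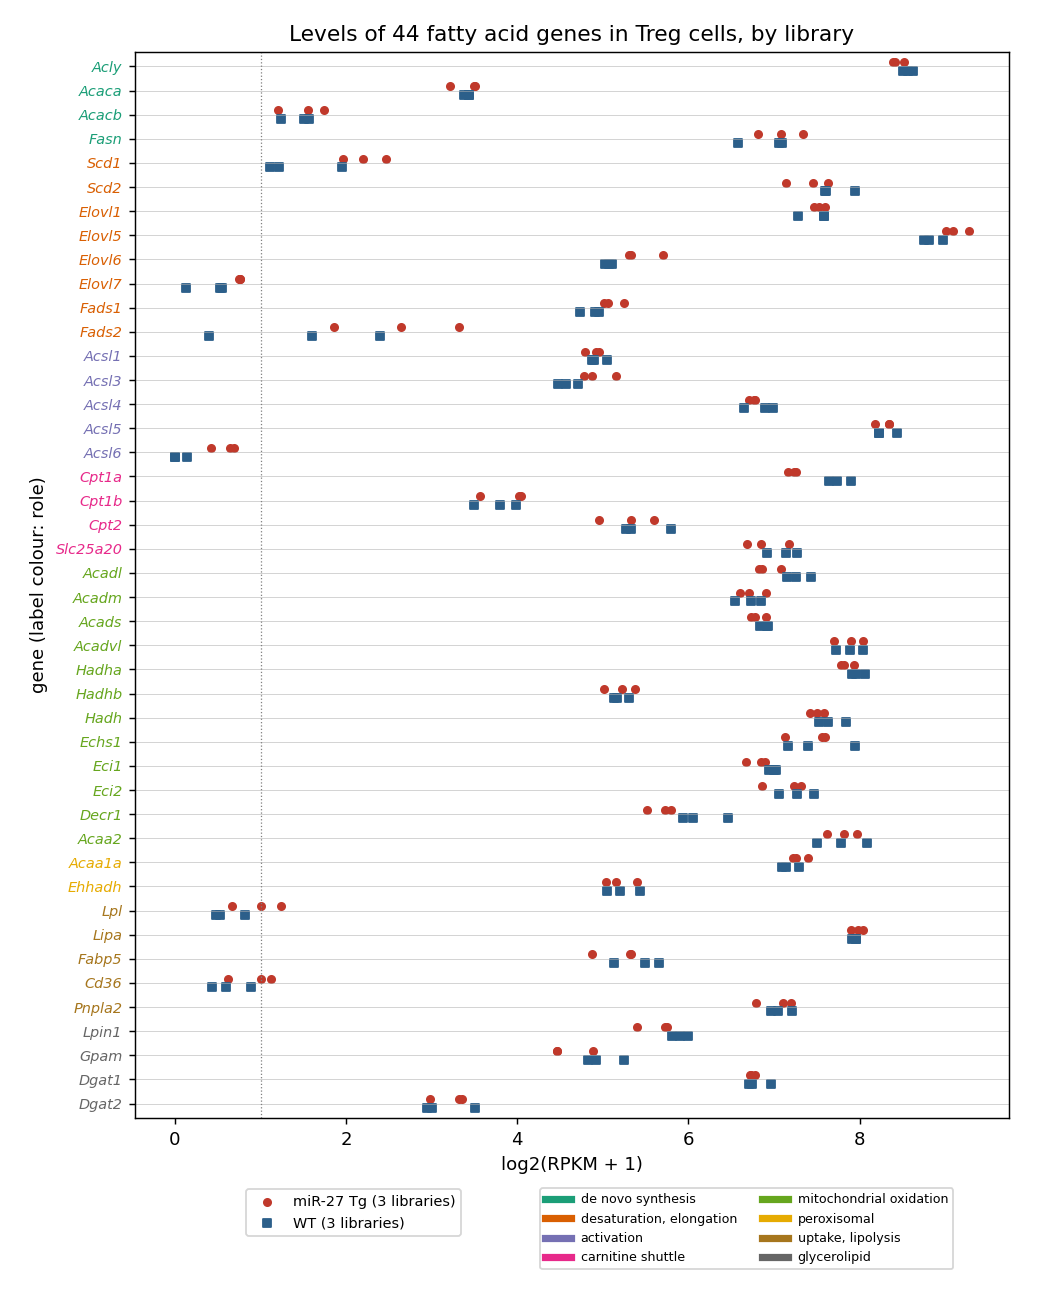
Level of all 44 members, in log2(RPKM + 1), in each library (round points, miR-27 Tg; squares, WT), by role; the dotted line marks 1 RPKM. Elovl5 lies highest, and Elovl7, Acsl6, Lpl and Cd36 lie around or left of the line.

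Uptake, binding and lipolysis showed 0 calls among 3 tested genes, and 0 of them had an unadjusted p under 0.05 by limma. Lipa, the lysosomal acid lipase, had 262, 251 and 239 RPKM in miR-27 Tg against 247, 239.6 and 247 RPKM in WT (log2 fold change 0.03, 95% interval -0.15 to 0.22). Pnpla2, the adipose triglyceride lipase that frees fatty acids from droplets, had 137, 146 and 109.8 RPKM in miR-27 Tg against 124, 131 and 147 RPKM in WT. Fabp5, a fatty acid chaperone, had 28.4, 39.1 and 38.8 RPKM in miR-27 Tg against 34.0, 44.2 and 49.5 RPKM in WT (-0.26, -0.68 to 0.17). These 3 genes overlapped between the groups. The scavenger receptor Cd36 had 7, 14 and 12 reads in miR-27 Tg against 5, 7 and 11 in WT. Lipoprotein lipase, Lpl, had 9, 14 and 19 reads in miR-27 Tg against 13, 7 and 6 in WT. Both genes were thus near the floor in every library.

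Glycerolipid synthesis stores fatty acids as triglyceride. Lpin1, the phosphatidate phosphatase, had 52.8, 52.0 and 41.2 RPKM in miR-27 Tg against 62.8, 55.0 and 58.6 RPKM in WT, with no overlap (log2 fold change -0.27, adjusted p = 0.436 by limma). Gpam, the mitochondrial acyltransferase that starts the pathway, had 21.1, 28.6 and 21.1 RPKM in miR-27 Tg against 27.4, 37.1 and 29.2 RPKM in WT. Human GPAM has been described as a miR-27b target in liver cells. Here 1 miR-27 Tg library lay above the lowest WT library, and the log2 fold change was -0.39 (95% interval -0.80 to 0.02, adjusted p = 0.408 by limma). Of the acyltransferases of the last step, Dgat1 had 104, 105 and 108 RPKM in miR-27 Tg against 104, 106 and 124 RPKM in WT. Dgat2 had 6.91, 9.20 and 8.94 RPKM in miR-27 Tg against 6.68, 10.3 and 6.99 RPKM in WT. Both overlapped, with log2 fold changes of -0.07 and 0.07.

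Other genes of the same pathways came from 3 lists. Of 31 regulators 26 were tested and 0 passed by limma, while 1 had an unadjusted p under 0.05. That was Insig1, the sterol-sensing anchor of SREBP, with 178, 197 and 177 RPKM in miR-27 Tg against 145, 158 and 144 RPKM in WT (log2 fold change 0.30, adjusted p = 0.204 by limma). Srebf1, the regulator of fatty acid synthesis, had 191, 206 and 164 RPKM in miR-27 Tg against 166, 180.4 and 202 RPKM in WT. Srebf2, its counterpart for sterols, had 507, 467 and 394 RPKM in miR-27 Tg against 396, 306.5 and 428 RPKM in WT. Scap, Mlxip, Ppard, Ppargc1b and Prkaa1 had fold changes of 0.16, -0.08, 0.27, 0.20 and -0.03. Ppara and Ppargc1a, regulators of oxidation in liver and muscle, were below the minimum in both groups, and Pparg had 1.36 ± 0.932 RPKM in miR-27 Tg and 1.23 ± 0.599 RPKM in WT (SD, n = 3 each).

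Of 24 other genes of synthesis and elongation 17 were tested, 0 passed, and 0 had an unadjusted p under 0.05 by limma. Of 44 other genes of oxidation 34 were tested, 0 passed, and 4 had an unadjusted p under 0.05, all lower, by limma (11.8%, against 8.43% of all genes tested). They were Acsbg1, Acsf2, Ech1 and Acot7, 4 of the 5 genes of that list (14.7%, against 11.6% of all genes tested) whose miR-27 Tg libraries all lay below WT. Acsbg1, an acyl-CoA synthetase, came closest to passing, with 109, 131 and 127 RPKM in miR-27 Tg against 169.7, 239 and 215 RPKM in WT (log2 fold change -0.75, adjusted p = 0.0590 by limma). Ech1, an isomerase of unsaturated acyl-CoA, had 276, 309 and 338 RPKM in miR-27 Tg against 343, 424 and 416 RPKM in WT (-0.36, adjusted p = 0.237 by limma).

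Marker lists were summed in each library to set other cell types beside these values. The summed level of 7 Treg markers was 10099 to 10513 RPKM in miR-27 Tg against 10794 to 11732 RPKM in WT, without overlap. Ctla4 weighed most on this gap, with 2107, 2322 and 2575 RPKM in miR-27 Tg against 3771, 3413 and 3125 RPKM in WT. Of the 7 Treg markers 4 lay above 0 in log2 fold change, and 0 passed by limma. The summed level of 17 myeloid markers was 602, 2102 and 1292 RPKM in miR-27 Tg against 469, 449 and 883 RPKM in WT, with 15 of 16 tested markers above 0 in log2 fold change and 1 (Itgam, higher) past the test. These sums overlapped, since 1 miR-27 Tg library lay below 1 WT library. The 3 libraries with the most Fads2 were also the 3 with the highest myeloid sum, and the part of myeloid RNA in the values of Fads2, Scd1, Cd36 and Lpl was not tested. Of 10 adipocyte markers 2 (Lep and Adrb3) were at 0 in every library, and the sum was 3.43 to 7.60 RPKM in miR-27 Tg against 2.42 to 2.97 RPKM in WT, without overlap. These sums are near the floor, and only 2 of the markers (Adipoq and Fabp4) were abundant enough to test. Each of these 2 overlapped between the groups, and 0 passed by limma. Sums of 8 B cell markers (109.6 to 163 against 143 to 169 RPKM), 8 markers of CD8 T and NK cells (173 to 311 against 189.7 to 253) and 8 erythroid markers (12.9 to 73.0 against 21.2 to 107) overlapped between miR-27 Tg and WT. Of 7 tested CD8 T and NK markers 4 lay above 0 in log2 fold change, and 1, Nkg7, passed the test in the other direction. Nkg7 had 48.2, 59.0 and 51.8 RPKM in miR-27 Tg against 102.5, 114 and 90.4 RPKM in WT (log2 fold change -0.93, adjusted p = 0.0257 by limma). Of the erythroid markers 0 of 7 tested lay above 0, but these are not 7 separate loci. Hbb-b2 and Hbb-bt have the same position and values. Hbb-b1 with Hbb-bs, and Hba-a1 with Hba-a2, lie on nearly the same bases, so the erythroid sum counts such loci more than once. Endothelial and stromal markers, 8 genes led by Pecam1, which Treg cells also express, summed to 582 to 685 RPKM in miR-27 Tg against 437 to 562 RPKM in WT, again without overlap. Most of each sum was Pecam1, with 576, 652 and 653 RPKM in miR-27 Tg against 435, 555 and 450 RPKM in WT. Of the 3 tested markers 3 lay above 0 and 0 passed by limma. Col1a1 and Col1a2, below the minimum, were lower in every miR-27 Tg library than in any WT library. The part of the listed cell types in the members' values was not tested.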

How the data were processed

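The authors deposited 1 table of RPKM values for the 6 libraries, 1 row for each of 34711 RefSeq transcripts. The submitters' processing notes list STAR 2.2.0c, HOMER, mm10 and GRCm38. Per the file headers, exonic reads of both strands were counted by HOMER and each library was set to 10000000 reads, so that genes overlapping in antisense share reads. Of the low values 100% were multiples of 1 read's value, within 0.1 read, which gave depths of 34400000 to 38100000 counted reads in miR-27 Tg and 37700000 to 42100000 in WT and the read numbers printed here. No count model was applied.

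Per symbol the transcript with the highest mean RPKM was kept. Genes with a mean of at least 1 RPKM were fitted as log2(RPKM + 1) with limma 3.58.1 (R 4.3.3, intensity trend, two-sided, no replicate block, Benjamini-Hochberg over all genes tested, threshold 0.05). The fit was tested on simulated data. Intervals are 95%. Across genes, log2 levels correlated at 0.979 to 0.985 for libraries of 1 group and at 0.970 to 0.980 for libraries of different groups.

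The 3′ UTR was that of the GENCODE M21 transcript linked to the deposited RefSeq row, or otherwise the longest of the gene. It can run past the end of that row, as for Acsl5.

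Members, gene lists, markers and tests were chosen with earlier results of these data known. Every member is described; values per library are given for members past the test, with non-overlapping groups or with an unadjusted p under 0.05, and for gateway enzymes. Of the other pathway lists, genes past the test and 11 regulators are named by rule, except that 1 list of lipid storage genes is not reported here; Acsbg1, Ech1, Acsf2 and Acot7, and the library values of Acacb, Acsl5, Acsl6, Cpt1b, Elovl7, Fads2, Lipa and Slc25a20, were added after their values were seen.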

Additional observations from a re-analysis of the deposited data

How the results depend on the processing

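The fold changes of 23 of the 40 members kept their sign in all 17 alternatives. The other 17 had fold changes within 0.12 of 0 on the log2 scale, and none of them passed the test. Cpt1a kept its direction throughout (log2 fold change -0.61 to -0.47) and passed in 7 alternatives. The number of members called lower was 0, against 1, with no filter (adjusted p = 0.0719), median-of-ratios scaling (0.0685), quantile normalization (0.0501) and no trend (0.0857), and 0 in each of the 6 fits without 1 library. None was higher in any alternative, by limma; with the settings of the report 4 members were higher at an unadjusted p under 0.05. No filter means more genes tested, and leaving out a library means fewer samples. The cause of the change in the call was not tested for any alternative. Over all genes, 51 higher and 89 lower became 15 and 32 with no filter, 81 and 144 with array weights, and 3 to 21 higher and 2 to 46 lower without 1 library. With the replicate number as a block they became 91 and 185, and 1 member (Cpt1a, adjusted p = 0.0356) was lower. The numbers were not taken to pair the libraries, since same-numbered libraries deviated together with correlations of 0.37, 0.10 and 0.04, and not every library correlated best with its own number.

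Signs turned with median-of-ratios scaling for Acaca (0.015), Acsl5 (0.022), Acadvl (0.028) and Ehhadh (0.0017), with quantile normalization for Acaca (0.045), Acsl1 (0.015) and Ehhadh (0.025), and with array weights for Acaca (0.0080), Acsl5 (0.044), Cpt1b (-0.072), Acadvl (0.022), Echs1 (0.065) and Ehhadh (0.069). With 1 library left out, fold changes ranged from -0.14 to 0.16 for Acaa2, -0.067 to 0.081 for Acaca, -0.055 to 0.21 for Acacb, -0.050 to 0.10 for Acadm, -0.083 to 0.084 for Acadvl, -0.084 to 0.0087 for Acsl1, -0.047 to 0.061 for Acsl5 and -0.014 to 0.27 for Cpt1b. They ranged from -0.11 to 0.012 for Dgat1, -0.033 to 0.25 for Dgat2, -0.24 to 0.15 for Echs1, -0.23 to 0.016 for Eci2, -0.13 to 0.074 for Ehhadh, -0.055 to 0.10 for Elovl1, -0.082 to 0.10 for Hadhb, -0.00020 to 0.066 for Lipa and -0.12 to 0.081 for Pnpla2. Of members that kept their sign, 1 library moved the value by over 1.5 times for Scd2 (-0.42 to -0.17), Fads2 (0.61 to 1.605), Elovl6 (0.25 to 0.45), Eci1 (-0.23 to -0.12), Lpin1 (-0.34 to -0.16) and Fabp5 (-0.41 to -0.11), among others. Depth limits Acacb, Scd1, Fads2, Lpl, Cd36, Elovl7 and Acsl6, with at most 75 reads in a library.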
